A study of Mus musculus with 20 samples.

Results

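The 10 genes followed here belong to the AP-1 and immediate early programme and were measured in mouse bone marrow-derived macrophages (BMDM): Fos, Fosb, Fosl2, Jun, Junb, Jund, Atf3, Egr1, Egr2 and Ier2. They were chosen by name, with earlier results of these data known. The row of each was found in the table of normalized gene counts through its Ensembl identifier and the GENCODE M21 annotation. All 10 were present among the 14456 listed genes, and all 10 passed the filter on low values (a floor of 10 on the mean normalized count) in every comparison.

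The study asked how elevated glucose, and the exosomes that macrophages release under elevated glucose, alter macrophages. BMDM were grown from the marrow of male C57BL/6J mice 8 to 12 weeks old, with no engineered allele in any group. Total RNA was sequenced from 20 libraries in 5 groups of 4. In the first experiment the culture medium held 25 mM glucose (high glucose) or 5.5 mM glucose plus 19.5 mM mannitol as the osmotic control (normal glucose), for 24 h. In the second, naive BMDM received for 24 h either PBS, exosomes from BMDM grown in normal glucose (BMDM-NG-exo) or exosomes from BMDM grown in high glucose (BMDM-HG-exo), both at 2000000000 particles per ml. The labels give 4 dates for the second experiment, and each date holds 1 library of each of its 3 groups. For the second experiment the paper states that the samples used separate exosome preparations. The labels do not say whether libraries came from separate mice, so the p-values measure the spread between these libraries, which may be partly technical.

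AP-1 is a dimeric transcription factor built from leucine zipper proteins. Jun proteins can pair with themselves or with Fos and ATF proteins, whereas Fos proteins need a Jun partner, so the mix of subunits present sets which dimers can form. The Fos, Jun and Egr genes are immediate early genes: growth factors, stress and microbial products switch on their transcription through MAP kinases within minutes and without new protein synthesis, and transcripts such as that of Fos decay quickly. In macrophages the same genes respond to toll-like receptor ligands and to the growth factor M-CSF, and the RNA here was taken at 24 h, long after such a first burst.

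The upstream sequences of Fos, Junb and Jun are shown because the BMDM-HG-exo libraries of these members did not overlap the PBS libraries, with Fos and Junb lower and Jun higher. Each line gives the 250 bases before the transcription start in the RefSeq annotation of GRCm38.p6, on the strand of the gene, with the capitals marking each match to TGACG, the core of the cAMP response element that CREB and ATF proteins bind (either strand was searched). The Fos window is chr12:85473640-85473889 on the plus strand, the Junb window is chr8:84978749-84978998 on the minus strand and the Jun window is chr4:95052223-95052472 on the minus strand.
Fos: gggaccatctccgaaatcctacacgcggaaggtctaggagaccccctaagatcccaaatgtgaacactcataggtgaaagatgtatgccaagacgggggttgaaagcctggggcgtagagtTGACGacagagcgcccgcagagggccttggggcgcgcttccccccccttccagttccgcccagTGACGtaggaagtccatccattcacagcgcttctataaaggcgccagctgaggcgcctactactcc
Junb: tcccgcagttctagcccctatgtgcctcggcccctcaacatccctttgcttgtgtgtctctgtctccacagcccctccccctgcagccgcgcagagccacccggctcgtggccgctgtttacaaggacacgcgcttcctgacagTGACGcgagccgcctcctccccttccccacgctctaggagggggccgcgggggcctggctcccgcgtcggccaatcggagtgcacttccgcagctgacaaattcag
Jun: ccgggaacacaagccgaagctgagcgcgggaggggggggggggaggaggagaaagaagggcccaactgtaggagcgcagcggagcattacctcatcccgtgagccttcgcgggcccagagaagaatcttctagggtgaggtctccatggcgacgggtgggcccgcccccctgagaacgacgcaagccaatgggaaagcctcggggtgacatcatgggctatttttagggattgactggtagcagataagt
The first base of the Fos matches lay 129 and 66 bases before the start, and that of the Junb match lay 106 bases before it. The Jun window held no match to TGACG. Variants of the searched strings were not counted, and the Jun window holds the variant tgacatca. Of the 10 members, 8 had a window in the table, and 5 of these held TGACG in at least 1 window (Fos, Fosb, Junb, Atf3 and Egr2, the last with several start sites), where 19.8% of 27025 genes held it in at least 1 window and 17.8% of all 32851 windows did. The core of the AP-1 element, TGANTCA, was in 6.75% of all windows and in none of the members' windows. The Jund window, on the plus strand, ends at base 70697738 and so does not adjoin the GENCODE M21 start of Jund at 70698949. The Atf3 window (191183334 to 191183583, minus strand) lies inside the M21 gene, which starts at 191218039. Inside their genes too lie the Fosl2 window (32136222 to 32136471, gene start 32135801) and the Egr2 windows with TGACG (gene start 67535475). A match describes letters in the window and not a site in use.

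Depth was 34016445 to 56310712 assigned reads per library, recovered from the normalized counts, and lowest in the PBS group (34016445 to 44693640 reads). Per kb of exon, the order of the members by mean normalized count over 20 libraries was Atf3 (3390 per kb), Jund (3180), Jun (2653), Junb (1245), Fos (739), Ier2 (443), Fosl2 (277), Egr1 (106), Egr2 (69.0) and Fosb (8.11). Neighbours in that order whose libraries overlapped were Atf3 with Jund, Jund with Jun, Junb with Fos and Egr1 with Egr2, and the other neighbours were apart in all 20 libraries. Over all 20 libraries the highest normalized count was 1.21 (Atf3) to 3.13 (Fosb) times the lowest. Fosb was the most weakly counted member, with 23 to 98 reads per library, whereas the other 9 had at least 163 reads in every library. Jun, Junb and Jund overlap a gene on the opposite strand that is also listed (Junos, Prdx2 and Gm11175), and the authors counted reads by strand.

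**Figure D1:**
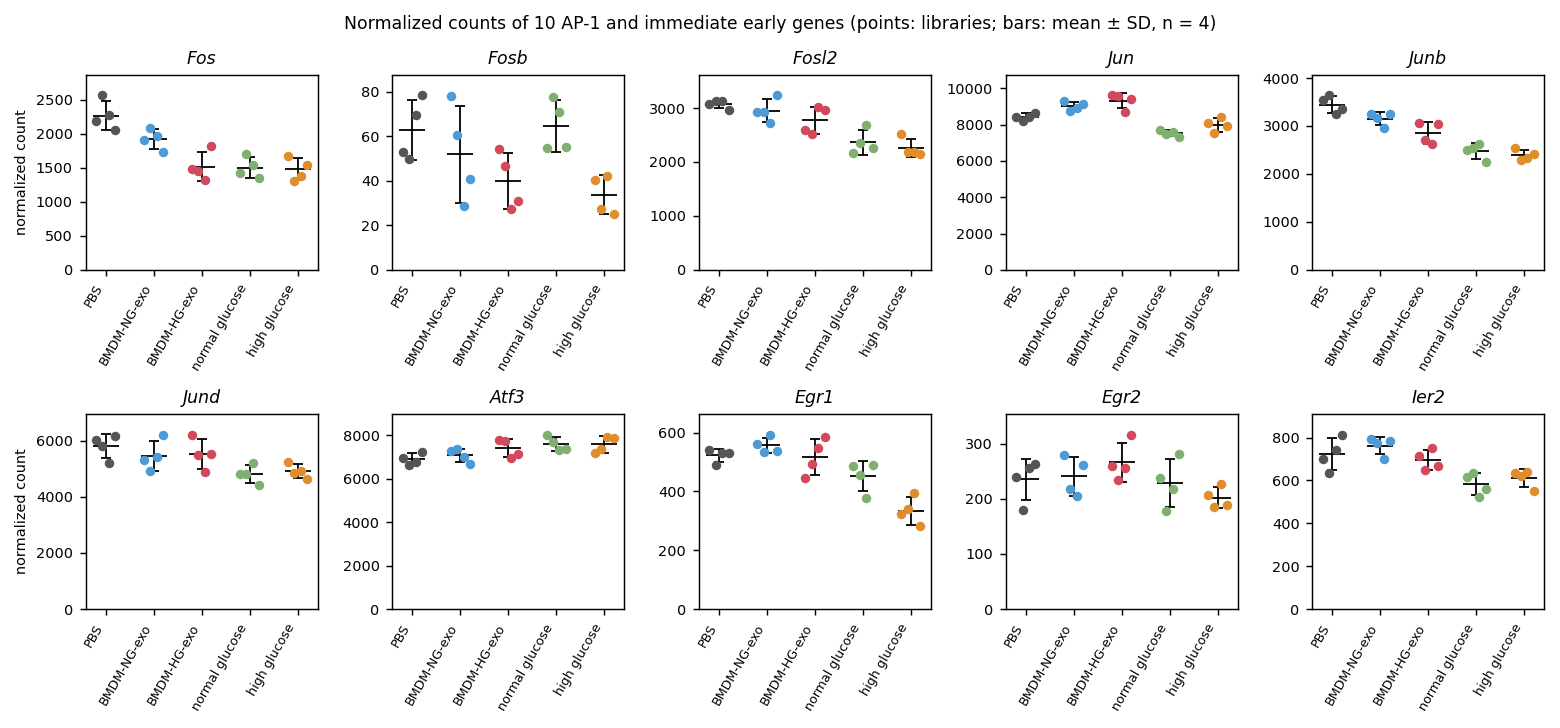
Normalized counts (y axis, from 0, a scale of its own for each gene) of the 10 members in the 5 groups (x axis). Points are libraries and bars are the mean ± SD of 4 libraries. Fos falls from PBS (2053 to 2566) to BMDM-HG-exo (1316 to 1815) without overlap, and Fosb (25.0 to 42.2) lies lower in high glucose than in normal glucose (54.8 to 77.9).

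Fos, the founding Fos subunit (ENSMUSG00000021250; chromosome 12, 85473890 to 85477273, plus strand, GRCm38), was lowered in BMDM that received BMDM-HG-exo. Its normalized counts in the PBS libraries 1 to 4 were 2186, 2566, 2276 and 2053. With BMDM-NG-exo they were 1916, 2080, 1972 and 1729, and with BMDM-HG-exo they were 1487, 1448, 1316 and 1815. Every BMDM-HG-exo library lay below every PBS library, as for 5.59% of all genes tested, and the BMDM-NG-exo libraries lay between, with overlap on both sides. Mean ± SD was 2270 ± 217 for PBS, 1924 ± 147 for BMDM-NG-exo and 1517 ± 212 for BMDM-HG-exo (n = 4 each).

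Against PBS, Fos fell by 0.59 on the log2(normalized count + 1) scale with BMDM-HG-exo (SE 0.0748, limma adjusted p = 1.03e-06), a change of -33.4%. A gene was called in an exosome comparison when its adjusted p (Benjamini-Hochberg, over all genes tested) was under 0.05 and its log2 fold change at least 0.15 in size. Fos and Junb were called, 2 of 10 members and both lower, where 4.84% of all genes tested were called (698 of 14413). Against the combined PBS and BMDM-NG-exo libraries, Fos fell by 0.47 (SE 0.0795, limma adjusted p = 0.0107) and was the 1 member of 10 called, where 0.201% of all genes were called (29 of 14413). This call was lost without BMDM-HG-exo library 1, 2 or 3 (adjusted p = 0.101, 0.057 and 0.0707).

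Between the exosome groups, Fos was -0.35 with BMDM-HG-exo relative to BMDM-NG-exo (SE 0.0748) and did not pass (limma adjusted p = 0.0895). None of the 10 members was called in this comparison by limma (2 at an unadjusted p under 0.05, Fos and Junb), where 0.0139% of all genes were called (2 of 14413 by limma, and 942 at an unadjusted p under 0.05). With the library date as a block the same difference passed (limma adjusted p = 0.0334), and 0.153% of genes were then called. It passed too by DESeq2 (adjusted p = 0.0308, with 25 genes or 0.245% called) and without BMDM-HG-exo library 4, the highest of its group (limma adjusted p = 0.00411). BMDM-NG-exo relative to PBS gave -0.24 (SE 0.0748, limma adjusted p = 0.0770), and none of the 10 members was called by limma, edgeR or DESeq2 (3 at an unadjusted p under 0.05, Fos, Jun and Junb), where 3.0% of all genes were called. The comparisons with PBS share the PBS libraries, and the others share exosome libraries, so their values are not independent of one another.

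With high glucose in the medium, the Fos counts overlapped those of normal glucose. The normal glucose libraries 1, 3, 5 and 6 held 1418, 1707, 1543 and 1346 normalized counts, and the high glucose libraries 1, 2, 4 and 6 held 1671, 1313, 1381 and 1550. The log2 fold change was -0.02, with a 95% interval from -0.17 to 0.12 (limma adjusted p = 0.877). The difference between this glucose effect and the effect of BMDM-HG-exo over BMDM-NG-exo was 0.33 for Fos (SE 0.114) and did not pass (limma adjusted p = 0.0977). None of the 10 members was called in this test of the difference by limma or edgeR (2 at an unadjusted p under 0.05, Fos and Egr1), where 4.74% of all genes were called.

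Fosb, a Fos subunit strongly induced by stimulation (ENSMUSG00000003545; chromosome 7, 19302696 to 19310051, minus strand), was lowered in high glucose. Its normalized counts were 54.8, 77.9, 71.2 and 55.3 in the normal glucose libraries, against 40.2, 27.5, 42.2 and 25.0 in the high glucose ones. All 4 high glucose libraries lay below all 4 normal glucose libraries, a separation in this direction seen for 7.11% of all genes tested. Fosb fell by 0.94 on the log2 scale (SE 0.299, limma adjusted p = 0.0309), a change of -47.8%, on 23 or more reads per library. The call was lost when normal glucose library 3 or 5, or high glucose library 2 or 6, was left out (limma adjusted p between 0.0805 and 0.101).

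With exosomes Fosb scattered widely. The PBS libraries held 53.2, 49.9, 69.6 and 78.4 normalized counts, the BMDM-NG-exo libraries 78.1, 60.5, 28.7 and 40.6, and the BMDM-HG-exo libraries 54.3, 46.9, 27.5 and 31.2. These ranges overlapped, and BMDM-HG-exo relative to PBS gave -0.67 with a 95% interval from -1.34 to 0.00 (limma adjusted p = 0.299). This interval holds both no change and a fall of the size seen in high glucose.

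Fosl2, which encodes the more stable subunit Fra-2 (ENSMUSG00000029135), held 3067, 3125, 3136 and 2973 normalized counts with PBS, and 2599, 2518, 3024 and 2960 with BMDM-HG-exo. The BMDM-NG-exo libraries held 2921, 2930, 2725 and 3234. The difference between BMDM-HG-exo and PBS was -0.15 (SE 0.0566, limma adjusted p = 0.127). All 4 dates were lower with BMDM-HG-exo, though library 4 was nearly level (2960 against 2973), and the all-gene share was not computed. In the glucose experiment Fosl2 was at 2159, 2354, 2695 and 2262 in the normal glucose libraries and at 2512, 2185, 2188 and 2143 in the high glucose libraries, and the groups overlapped (log2 fold change -0.07, limma adjusted p = 0.532).

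Junb, the Jun subunit often set against Jun because it activates many AP-1 sites more weakly (ENSMUSG00000052837; chromosome 8, 84974484 to 84978718, minus strand), fell alongside Fos. The PBS libraries held 3532, 3637, 3245 and 3345 normalized counts, and the BMDM-NG-exo libraries 3245, 3164, 2965 and 3248. The BMDM-HG-exo libraries held 3052, 2707, 2626 and 3040, all below the lowest PBS library, as for 5.59% of all genes tested. Mean ± SD was 3440 ± 177, 3156 ± 133 and 2856 ± 222 in that order (n = 4 each).

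Junb fell by 0.27 on the log2 scale with BMDM-HG-exo against PBS (SE 0.0531, limma adjusted p = 0.000728), a change of -17.1%, and was called in all 12 fits that left out 1 library. Against PBS and BMDM-NG-exo together Junb was -0.21 (SE 0.0519) and did not pass (limma adjusted p = 0.0705), although DESeq2 gave an adjusted p of 0.0249 and called 1.17% of genes. BMDM-HG-exo relative to BMDM-NG-exo gave -0.15 (limma adjusted p = 0.618), and BMDM-NG-exo relative to PBS gave -0.12 (limma adjusted p = 0.271). In the glucose experiment the 2243 to 2626 normalized counts in normal glucose overlapped the 2289 to 2535 in high glucose (log2 fold change -0.05, 95% interval -0.16 to 0.06).

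Jun, the subunit that pairs with Fos in the classical AP-1 dimer (ENSMUSG00000052684; chromosome 4, 95049034 to 95052222, minus strand), lay higher, not lower, in both exosome groups. The PBS libraries held 8438, 8208, 8441 and 8657 normalized counts. With BMDM-NG-exo they were 9283, 8757, 8931 and 9144, and with BMDM-HG-exo 9605, 9588, 8711 and 9387. All 8 exosome libraries lay above the highest PBS library, the closest being BMDM-HG-exo library 3. Separation above PBS was seen for 4.41% of genes with BMDM-HG-exo and for 3.64% with BMDM-NG-exo.

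The size of the Jun difference was small. BMDM-HG-exo relative to PBS gave 0.14 (SE 0.0373, limma adjusted p = 0.0138), a change of 10.4% that passed the p threshold but not the limit of 0.15 on the fold change. Without that limit 5.4% of all genes were called, Jun among them. BMDM-NG-exo relative to PBS gave 0.10 (limma adjusted p = 0.187), and BMDM-HG-exo relative to BMDM-NG-exo gave 0.05 with a 95% interval from -0.03 to 0.12. High glucose relative to normal glucose gave 0.09 (7513 to 8430 against 7303 to 7688 normalized counts, limma adjusted p = 0.15).

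Jund, the Jun subunit kept on in resting cells (ENSMUSG00000071076), was not called in any comparison. It held 5200 to 6166 normalized counts with PBS, 4930 to 6197 with BMDM-NG-exo and 4902 to 6211 with BMDM-HG-exo. The normal glucose range was 4430 to 5199 and the high glucose range 4637 to 5227, and the 95% interval of the log2 fold change ran from -0.06 to 0.12.

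Atf3, a stress-induced zipper protein that can pair with Jun proteins and restrains inflammatory genes in macrophages (ENSMUSG00000026628), was not called in any comparison. Normalized counts were 6636 to 7243 with PBS, against 6671 to 7361 after BMDM-NG-exo and 6940 to 7788 after BMDM-HG-exo. BMDM-HG-exo relative to PBS gave 0.10 (SE 0.0425, limma adjusted p = 0.213). In the glucose experiment its log2 fold change was -0.00, with a 95% interval from -0.09 to 0.08.

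Egr1, a zinc finger factor induced through serum response elements (ENSMUSG00000038418), was lowered in high glucose. The normal glucose libraries held 486, 456, 379 and 491 normalized counts, and the high glucose libraries held 323, 339, 396 and 281. The groups touched only where normal glucose library 5, the lowest of its group, lay under high glucose library 4, the highest of its own. Mean ± SD was 453 ± 51.7 for normal and 335 ± 47.5 for high glucose (n = 4 each).

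Egr1 fell by 0.44 on the log2 scale in high glucose (SE 0.116, limma adjusted p = 0.00847), a change of -26.2%. Egr1 and Fosb were the 2 of 10 members called in the glucose comparison, both lower, where 13.3% of all genes were called (5.53% lower). No limit on the fold change was set there. The Egr1 call was lost without high glucose library 6 (limma adjusted p = 0.0573). With exosomes Egr1 showed no such difference: the ranges were 490 to 541 normalized counts with PBS, 535 to 592 with BMDM-NG-exo and 446 to 586 with BMDM-HG-exo, and BMDM-HG-exo relative to PBS gave -0.02 with a 95% interval from -0.21 to 0.18.

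Egr2, the related factor that takes part in myeloid differentiation (ENSMUSG00000037868), was not called in any comparison. Its ranges were 181 to 264 normalized counts with PBS, 205 to 280 with BMDM-NG-exo and 233 to 316 with BMDM-HG-exo, and 177 to 281 and 185 to 227 in normal and high glucose. The high glucose difference of -0.16 had a 95% interval from -0.47 to 0.14, which includes the value found for Egr1.

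Ier2, a small nuclear protein of the immediate early class (ENSMUSG00000053560), was not called either. It held 634 to 813 normalized counts with PBS, 701 to 791 with BMDM-NG-exo and 647 to 753 with BMDM-HG-exo. The normal glucose libraries held 522 to 635 and the high glucose libraries 550 to 639.

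**Figure D2:**
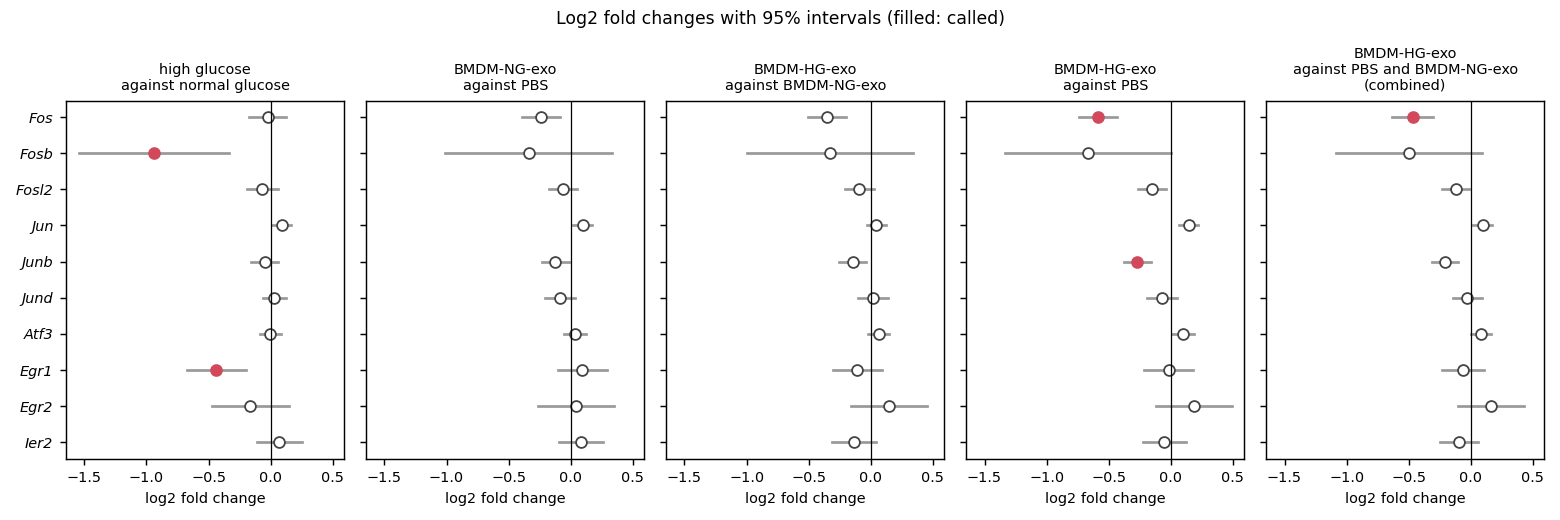
Log2 fold changes (x axis) of the 10 members (y axis) in 5 comparisons, from limma, with 95% intervals as lines. Filled points were called. Egr1 (-0.44) and Fosb (-0.94) are filled for high glucose, Fos (-0.59) and Junb (-0.27) for BMDM-HG-exo against PBS, and Fos (-0.47) against both controls.

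Egr1 and Fosb were called in high glucose, and Fos and Junb with BMDM-HG-exo against PBS. The difference between these effects was not tested, since the test of a difference used BMDM-HG-exo relative to BMDM-NG-exo. Over the 10 members the median log2 fold change was -0.04 in high glucose (all genes tested, -0.00), -0.06 with BMDM-HG-exo relative to PBS (all genes, 0.00) and -0.01 with BMDM-NG-exo relative to PBS (all genes, 0.00). Of the 10 members, 3 were above 0 and 7 below in high glucose, again 3 and 7 with BMDM-HG-exo relative to PBS, and 5 and 5 with BMDM-NG-exo relative to PBS.

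The 4 dates allow the order of the exosome groups to be read within each date. Junb was in falling order from PBS to BMDM-NG-exo to BMDM-HG-exo on 4 of 4 dates, an order that 0.846% of all genes showed. Fos was in this order on 3 of 4 dates, and 4.5% of genes were on at least 3. On the remaining date BMDM-HG-exo library 4 (1815) lay above BMDM-NG-exo library 4 (1729) while both lay below PBS library 4 (2053). Jun was in rising order on 3 of 4 dates (at least 3 dates, 4.03% of genes), and the exception was library 3, with 8931 for BMDM-NG-exo and 8711 for BMDM-HG-exo. Fos and Junb were lower than PBS, and Jun higher, on all 4 dates for each exosome group. For Jun, and for Fos and Junb with BMDM-HG-exo, this follows from the groups not overlapping. The share of all genes with 1 direction on all 4 dates was not computed.

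**Figure D3:**
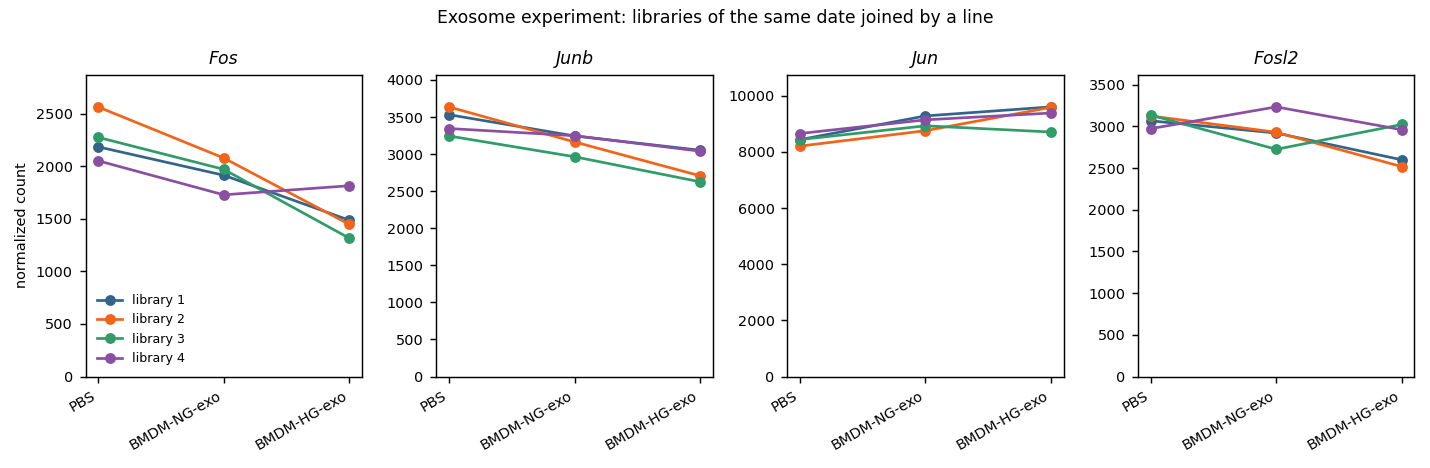
Normalized counts (y axis, from 0) of Fos, Junb, Jun and Fosl2 in the 3 exosome experiment groups (x axis), with the libraries of 1 date joined by a line. The Junb lines all fall from PBS (3245 to 3637) to BMDM-HG-exo (2626 to 3052), while the Fosl2 lines cross.

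Expressed as shares of each family, per kb of exon, the balance between subunits shifted modestly. Fos made up 73.2 to 76.7% of the summed Fos family (Fos, Fosb and Fosl2) with PBS, 68.3 to 74.6% with BMDM-NG-exo and 63.9 to 71.3% with BMDM-HG-exo. Junb made up 18.5 to 20.7% of the Jun family (Jun, Junb and Jund) with PBS, 17.5 to 19.4% with BMDM-NG-exo and 15.7 to 17.5% with BMDM-HG-exo. The PBS and BMDM-HG-exo ranges did not overlap in either family. Jun correspondingly took 33.7 to 36.9% of its family with PBS and 37.4 to 40.2% with BMDM-HG-exo. In the glucose experiment the Fos share was 69.4 to 73.9% in normal and 70.8 to 74.5% in high glucose, whereas the small Fosb share was 1.05 to 1.27% in normal glucose and 0.453 to 0.825% in high glucose. These shares restate the counts above and were not tested.

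**Figure D4:**
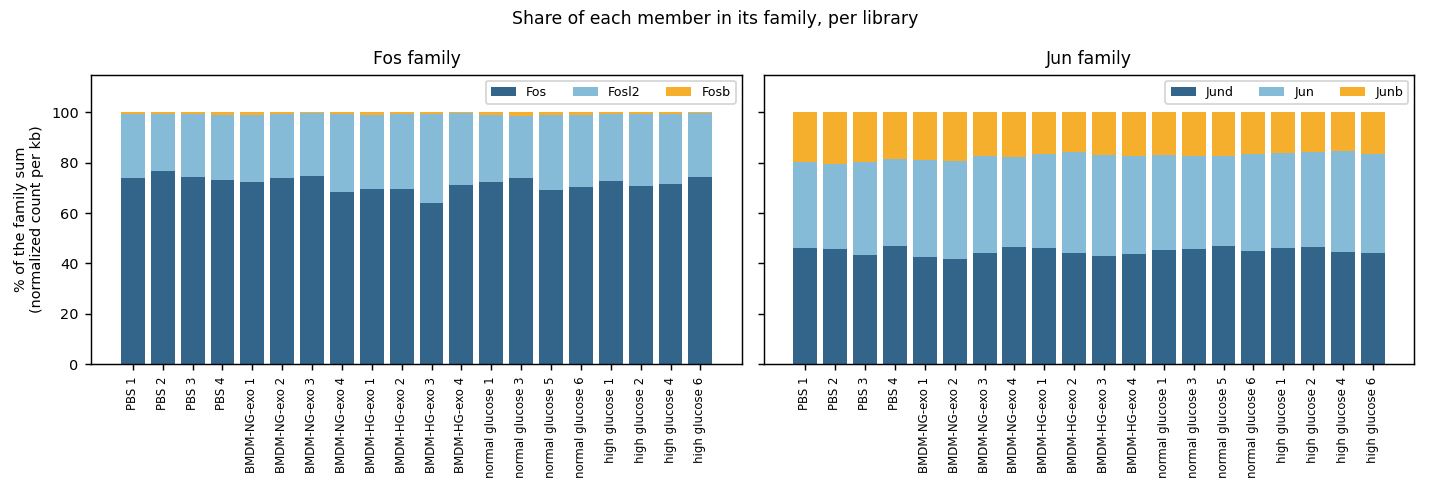
Share of each subunit in the summed normalized count per kb of its family (y axis, percent) in each of 20 libraries (x axis). In the Fos family the Fos share is 73.2 to 76.7% with PBS and 63.9 to 71.3% with BMDM-HG-exo, and in the Jun family the Junb share is 18.5 to 20.7% and 15.7 to 17.5%.

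Other genes of the same circuit were examined in 6 lists of 94 genes in all, of which 90 could be tested: other AP-1 zipper genes, other immediate early transcription factors, other immediate early genes, feedback regulators, serum response factor with its partners and CREB relatives, and MAP kinases. The lists, like the members, were chosen with earlier results of these data known, so their counts beside the all-gene shares are only a description. With BMDM-HG-exo against PBS, 3 were called higher and 11 lower of 90, where 1.76% of all genes tested were called higher and 3.08% lower. The feedback regulators (MAP kinase phosphatases, Sprouty and Spred inhibitors, Egr corepressors, the Zfp36 family and inhibitors of NF-kappaB and cytokine signalling) gave 6 lower and 0 higher of 18 tested. Among the 6, Zfp36l1, an RNA-binding protein that destabilises messages, fell by 0.33 (limma adjusted p = 1.47e-05) and its relative Zfp36, which binds AU-rich messages such as that of Fos, fell by 0.30 (limma adjusted p = 0.00114). Nfkbia, the inhibitor of NF-kappaB, fell by 0.32 (limma adjusted p = 0.000167) and Tnfaip3, a deubiquitinase acting in the same pathway, fell by 0.40 (limma adjusted p = 0.000594).

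The immediate early transcription factors outside the members gave 1 higher (Bhlhe40, 0.44, limma adjusted p = 0.00224) and 1 lower (Cebpb, -0.19, limma adjusted p = 0.0127) of 14 tested. The other immediate early genes gave 1 higher, Plk2, a polo-like kinase, at 0.23, and 4 lower of 22, among them the antiproliferative genes Btg1 (-0.20) and Btg2 (-0.20). Mrtfb, a coactivator of serum response factor, rose by 0.17 (limma adjusted p = 0.00574). None of the 16 MAP kinases or 11 other AP-1 zipper genes was called. BMDM-NG-exo against PBS called 3 higher (Bhlhe40, Plk2 and Mrtfb) and 2 lower (Nfkbia and Tnfaip3) of 90, where 0.888% of all genes were called higher and 2.11% lower. BMDM-HG-exo against both controls called 1 lower (Zfp36l1, -0.25, limma adjusted p = 0.0395), and against BMDM-NG-exo it called none of 90.

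In high glucose 19 of the 90 genes were called higher and 7 lower, where 7.74% of all genes tested were called higher and 5.53% lower. The factors Cebpb (0.38, limma adjusted p = 1.76e-07) and Cebpd (0.45, limma adjusted p = 9.17e-07) rose, while Nr4a1, an orphan nuclear receptor of the immediate early class, fell by 0.60 (limma adjusted p = 0.00439). Of the feedback regulators 7 rose and 3 fell, with Nfkbia at 0.40 and Zfp36l1 at -0.30. Of the other immediate early genes 5 rose and 1 fell, with the kinase gene Sgk1 at 0.37 and the stress gene Gadd45a at -0.41. Of the MAP kinase list 3 of 16 rose, and 1 of 9 genes in the serum response factor list fell (Crem, -0.34). Maf was the 1 of 11 other AP-1 zipper genes called (-0.18). The inducible heat shock genes, listed as a sign of stress, gave 3 higher of 9 tested in high glucose (Hsp90aa1 at 0.21) and none called in any exosome comparison. In the test of the difference between glucose and exosome effects, 9 of the 90 were called, all 9 with the larger value for glucose (3.27% of all genes), among them Cebpb (0.41), Cebpd (0.53), Nfkbia (0.37) and Sgk1 (0.40).

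Macrophage markers also differed between groups. All 8 macrophage markers were listed, and their summed normalized counts were 794502 to 841224 with PBS, 717507 to 773976 with BMDM-NG-exo and 735061 to 759636 with BMDM-HG-exo. With BMDM-HG-exo against PBS 5 of 8 were called lower (Fcgr1, Itgam, Csf1r, Cd14 and Adgre1) and 0 higher. Of all genes tested, 3.08% were called lower there. The same 5 were called lower with BMDM-NG-exo against PBS, where 2.11% of all genes were. For BMDM-HG-exo against both controls, 2 of 8 were called lower (Itgam and Fcgr1) and 0 higher. Only 0.132% of all genes were called lower in that comparison, in which Fos was called too. Against BMDM-NG-exo none of the 8 was called. In high glucose the sum was 808014 to 878735 against 628420 to 702912 in normal glucose. Lyz2 made up most of this sum, with a mean of 642842 in high and 480718 in normal glucose. Of the 8 markers, 4 were called higher (Csf1r, Lyz2, Cd14 and Adgre1) and 2 lower (Mertk and Cd68). Among all genes tested, 7.74% were called higher and 5.53% lower. Of 34 markers of neutrophils, T cells, B cells, fibroblasts, dendritic cells, erythroid and mast cells, 8 were listed. Their summed counts stayed at 252.8 or less for neutrophils (4 of 8 listed), 68.0 or less for B cells (1 of 4) and 349 or less for fibroblasts (3 of 5), and these ranges overlapped between groups. The share of reads from Malat1, a nuclear non-coding RNA, separated the glucose groups, at 1.64 to 1.74% in high and 1.41 to 1.61% in normal glucose, and overlapped between the exosome groups. The mitochondrial share overlapped within both experiments, from 7.45 to 9.48% of reads over all libraries. The part of these markers, of the Malat1 share and of the lower depth of the PBS libraries, in the Fos, Junb, Egr1 and Fosb results was not tested. In bulk RNA, fewer expressing cells and less RNA per cell cannot be told apart.

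Within groups, the members did not vary as a single unit. After removal of the 5 group means, the 45 pairs of members over 20 libraries had a mean Pearson r of 0.10 (SD 0.302), from -0.75 to 0.62, with 29 pairs above 0 and 5 above 0.5. The highest values were those of Junb with Jund (0.62), Fos with Junb (0.62) and Fosb with Jun (0.57), and the lowest was that of Fosl2 with Atf3 (-0.75). Libraries share normalization and depth, so these values are a description. Genes outside the 10 were ranked by r with the members' mean standardized level, over the same 20 libraries with group means removed. Highest among 11708 genes ranked were Cdc26 (r = 0.86), Fen1 (0.82), Akt2 (0.80), Dap (0.80) and Txndc15 (0.78). How high the top of so many values would lie by chance was not tested.

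**Figure D5:**
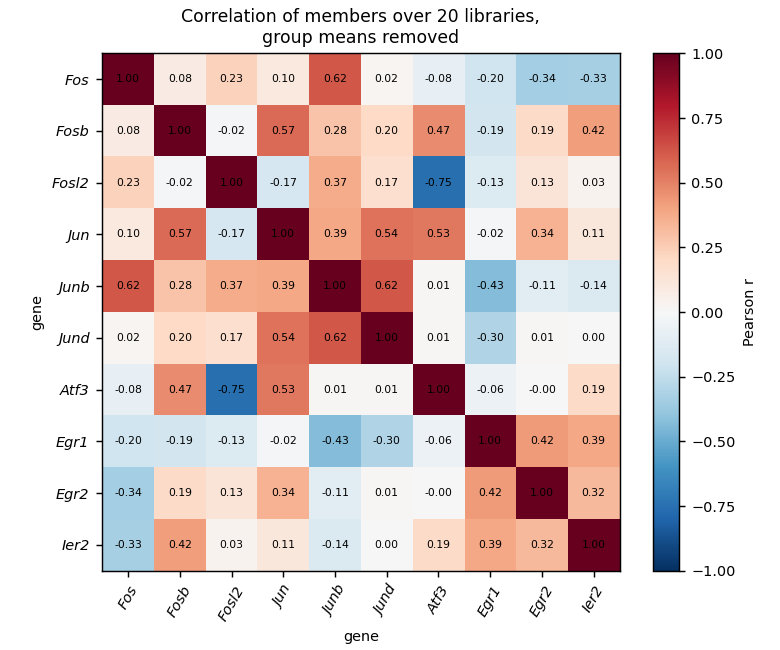
Pearson r between pairs of members over 20 libraries with group means removed (colour and printed value, from -1 to 1; both axes are genes). Fos with Junb is 0.62, and Fosl2 with Atf3 is -0.75.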

How the data were processed

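RNA was made into stranded total RNA libraries and sequenced. The authors trimmed reads as the kit's maker recommends, aligned them with STAR to GRCm38, counted them per gene and strand with featureCounts and divided by DESeq2 median-ratio size factors. The deposited values are these normalized counts (a signal, not raw counts), and the annotation used for counting was not given in the sources used here. Whole reads were recovered from the steps between low values in each library (100% of values whole within 1e-06), and served for depth and count tests only.

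The main test was limma 3.58.1 with a variance trend on log2(normalized count + 1), for genes with a mean of at least 10, with Benjamini-Hochberg adjustment over all genes. Fold changes of low genes are understated on this scale. One fit held the glucose experiment, others the 12 libraries of the exosome experiment, and the difference of effects used all 20. Genes were called at an adjusted p under 0.05, in exosome comparisons with a log2 change of at least 0.15. Alternatives were edgeR 4.0.16 and DESeq2 1.42.0 on recovered reads, pseudocounts of 0.5 and 5, a mean of at least 50, no filter, TMM factors, no trend, a replicate block and leaving out each library. Scripts were tested on simulated data. Dates in the labels pair the exosome libraries. Deviations of libraries of 1 date had a mean r of 0.0118 (12 pairs, -0.0187 to 0.0546). Those of different dates had a mean r of -0.00392 (36 pairs, -0.0920 to 0.0406), and the ranges overlapped. The members and gene lists were chosen with earlier results of these data known. All 10 members are named. In each list at most the 4 called genes with the smallest p were named, and the 5 genes most like the members.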

Additional observations from a re-analysis of the deposited data

Results flagged for a closer look

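Each member was examined in each of the 5 groups of 4 libraries, 50 in all, for a library whose gap to its nearest neighbour exceeded Dixon's 95% critical share of the group's range, and chance gives about 1 such group in 20. In 1 of 50 did a library stand apart. Fosl2 was at 2512 normalized counts in high glucose library 1, against 2143 to 2188 in the other high glucose libraries (gap over range 0.877). Fosl2 was not called in the glucose comparison.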

How the results depend on the processing

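The members called in high glucose numbered 1 rather than 2 with a mean of at least 50, which removed Fosb, 1 without the variance trend and 1 with a replicate block, and 0 to 2 when 1 library was left out. For BMDM-HG-exo against both controls they numbered 2 by DESeq2 and 0 without the trend, rather than 1 (0 to 2 with a library left out). Against BMDM-NG-exo they numbered 1 by DESeq2 and 1 with the date as replicate block, rather than 0 (0 to 1). Against PBS they numbered 1 without the trend, rather than 2 (2 to 3). For BMDM-NG-exo against PBS, and for the difference of effects, they numbered 0 to 1 with a library left out, rather than 0. The cause was not tested.

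In high glucose only library numbers 1 and 6 occur in both groups, so that the replicate block rests on these pairs. With it Egr1 was -0.69 (limma adjusted p = 0.000782), Fosb was -0.78 and no longer called (limma adjusted p = 0.409), and the uncalled differences of Fos (0.22), Fosl2 (0.0701) and Junb (0.0630) turned positive. It called 788 genes, against 1914 without it. With the date as block no call other than that of Fos against BMDM-NG-exo changed among the members. Without the trend Egr1 in high glucose (limma adjusted p = 0.0965), Fos against both controls (0.349) and Junb against PBS (0.0605) were no longer called, and 654, 1 and 295 genes were called in these comparisons, against 1914, 29 and 698. DESeq2 called 136 genes against both controls.

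Leaving out 1 library turned the sign of 28 of 760 differences, all of them of members not called. In high glucose Fos ran from -0.0856 to 0.0382, Jund from -0.00949 to 0.0675 and Atf3 from -0.0255 to 0.0236. Against PBS, Egr1 ran from -0.0794 to 0.0515 and Ier2 from -0.112 to 0.0071 with BMDM-HG-exo, and Egr2 from -0.0821 to 0.114 with BMDM-NG-exo. Against both controls Jund ran from -0.0857 to 0.0281 and Egr1 from -0.125 to 0.0058, and against BMDM-NG-exo Jund ran from -0.0421 to 0.0774. For the difference of effects Fosl2 ran from -0.0282 to 0.0882 and Jund from -0.0476 to 0.0718. Fos was called without PBS library 4 (limma adjusted p = 0.0469) or BMDM-HG-exo library 4 (0.0361) for BMDM-NG-exo against PBS, and without BMDM-HG-exo library 4 (0.0182) or normal glucose library 3 (0.0433) for the difference of effects. Junb was called against both controls without BMDM-NG-exo library 3 (0.0164), and Jun against PBS without PBS library 4 (0.0173) or BMDM-HG-exo library 3 (0.00327). The other settings left the sides of the threshold as reported. Fosb had the fewest reads of the members (23 to 98 per library).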
